A study of Homo sapiens with 30 samples.

Results

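The miR-100 and miR-10 family was followed across 6 lines of U-87 MG, an established human glioblastoma cell line. The family was taken as the genes MIR100, MIR99A, MIR99B, MIR10A and MIR10B, 5 of 1877 annotated miRNA genes, and the family was chosen by its counts in the small RNA libraries, where MIR100 had the highest of any miRNA gene. Levels in these libraries therefore describe the family and are not tests of it. Total RNA came from parental cells and from 5 lines carrying a doxycycline-inducible, myc-tagged and codon-optimised LARP6, an RNA-binding protein of the La-related family. The variants were full-length LARP6 (FL), LARP6 without its disordered N-terminal region (ΔNTR), without its C-terminal region (ΔCTR), without the folded La-module (ΔLa-module), or without the N-terminal region and the La-module together (ΔNTD). The paper reports high LARP6 expression in U-87 MG cells and describes no knockdown for these libraries. Each variant was thus added to the LARP6 of the cells themselves.

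The labels list 60 ng/mL doxycycline for 24 h for every sample, parental cells included. The 5 LARP6 lines were made by lentiviral transduction and puromycin selection, whereas parental cells were not transduced, so transduction, selection and the LARP6 variant cannot be told apart in a comparison with parental cells. Each line had 1 small RNA library of single 50 nt reads (SE50) and 1 long RNA library of paired 150 nt reads (PE150). With 1 library per line and protocol there is no replicate check, no p-value is given, and the 95% intervals below cover counting error only. Since the reads carry no stated molecular identifiers, these intervals are minimum errors. In bulk RNA, fewer cells of a type and less RNA per cell cannot be told apart.

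MicroRNAs are cut from hairpin precursors, and the mature strand guides Argonaute proteins to mRNAs that pair with its seed, bases 2 to 8. Members of the miR-99/100 group are known to target MTOR and other growth regulators. Members of the miR-10 group lie in the HOX clusters, and miR-10b is known for its high level in gliomas and its low level in normal brain.

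All 5 members had an entry in the RefSeq table of GRCh38.p14, MIR10B for hsa-miR-10b-3p and not for hsa-miR-10b-5p. The 5′ arms of the other 4 are shown 5′ to 3′ with the seed in capitals, because the seeds split the family into its groups:
hsa-miR-100-5p: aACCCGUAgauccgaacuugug
hsa-miR-99a-5p: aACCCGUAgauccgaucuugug
hsa-miR-99b-5p: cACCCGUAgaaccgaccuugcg
hsa-miR-10a-5p: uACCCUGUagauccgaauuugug
The miR-100, miR-99a and miR-99b arms shared the seed ACCCGUA. Counting from 1 at the 5′ end and giving the base of miR-100-5p first, miR-99a-5p differed by A16U alone. The miR-99b-5p arm differed from miR-100-5p at 4 bases, A1C, U11A, A16C and U21C, none of them in the seed. The miR-10a-5p arm has the seed ACCCUGU, which hsa-miR-10b-5p is known to share. With position 6 of miR-10a-5p left out, 20 of 22 bases were those of miR-100-5p. Each printed sequence occurred at 1 place in the genome, that of its own gene. The counts are per gene and join both arms, and a miR-100 read with the change A16U would be counted for MIR99A, which was not tested.

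In the GRCh38 annotation all members lie inside longer genes. The MIR100 hairpin (chr11:122152229-122152308, minus strand) is in an intron of the lncRNA gene MIR100HG. MIR99A (chr21:16539089-16539169, plus strand) is in an intron of the lncRNA gene MIR99AHG. MIR99B (chr19:51692612-51692681, plus strand) is in an intron of SPACA6, a gene with a role in sperm and egg fusion, and overlaps in part an exon of SPACA6-AS1 on the other strand. MIR10B (chr2:176150303-176150412, plus strand) is in an intron of HOXD3, and MIR10A (chr17:48579838-48579947, minus strand) is in an intron of HOXB3. Both HOX genes code for transcription factors that pattern the embryo along its axis.

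MIR10A was listed at 0 in each of the 6 SE50 libraries and the other 4 members were counted in all of them. In GENCODE 44 the MIR10A hairpin lies wholly inside an exon of a second lncRNA, ENSG00000257178, on the same strand. The paper names an earlier GENCODE release for the counting. Reads that fall on exons of more than 1 gene were set aside as ambiguous by the counting, and of 285 miRNA genes placed wholly in such an exon all 285 were at 0 in every library. Among the 1502 miRNA genes with no such overlap, 762 (50.7%) were at 0. The count of 0 for MIR10A is thus no measurement of its level.

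The SE50 libraries held 6181270 to 10307756 counts in genes, of which 96.7 to 97.7% were in miRNA genes. Ambiguous reads took 40.4 to 54.0% of all reads, more than the 28.2 to 37.7% counted in genes. MIR21 and MIR22, named after their counts were seen, are among the genes placed wholly in a same-strand exon and were at 0 as well, so all shares below are shares of the counted miRNA genes. Among marker genes in the PE150 libraries, VIM, FN1, CD44 and NES were counted in every line, VIM with at least 194113 counts. The astrocyte markers GFAP and S100B and the stem cell factor SOX2 had at most 6 counts in any line, and the immune markers PTPRC and AIF1 at most 2. OLIG2 and the markers of other cells EPCAM, PECAM1 and SYP had 24 to 70 counts, and the neuron marker RBFOX3 at most 4.

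MIR100 was the most counted miRNA gene in all 6 libraries. It had 7166183 counts in parental cells, 6888888 in FL, 5781510 in ΔLa-module, 6306199 in ΔNTD, 4416286 in ΔNTR and 4222185 in ΔCTR. As a share of miRNA counts this was 71.2% in parental cells, 77.5% in FL, 75.6% in ΔLa-module, 69.9% in ΔNTD, 68.0% in ΔNTR and 70.6% in ΔCTR. The Clopper-Pearson intervals of these shares do not overlap between lines, which says nothing of the spread between cultures. Of gene counts and ambiguous reads together MIR100 made up 25.9% in parental cells, 34.4% in FL, 34.5% in ΔLa-module, 31.0% in ΔNTD, 22.6% in ΔNTR and 24.9% in ΔCTR. FL and ΔLa-module were highest over both totals, whereas ΔNTD was below parental cells over the first and above them over the second.

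A gene that takes most of a library lowers the share of every other gene when it rises, so levels were set against the total of all miRNA genes other than MIR100. On this scale there were 2.47 MIR100 counts for each other miRNA count in parental cells, 3.44 in FL, 3.10 in ΔLa-module, 2.33 in ΔNTD, 2.12 in ΔNTR and 2.40 in ΔCTR. The FL level was 1.39 times that of parental cells and the ΔLa-module level 1.26 times. The ratio was 0.860 in ΔNTR, 0.972 in ΔCTR and 0.943 in ΔNTD. With MIR100 kept in the total the same ratios were 1.09, 1.06, 0.955, 0.992 and 0.983, in the order FL, ΔLa-module, ΔNTR, ΔCTR and ΔNTD.

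MIR10B, the miR-10 group member with counts, was the next most abundant of the family. Per 1000000 counts of miRNA genes other than MIR100 (CPM on this scale) it stood at 81247 in parental cells, 111611 in FL, 94281 in ΔLa-module, 66815 in ΔNTD, 71194 in ΔNTR and 78758 in ΔCTR. It ranked between 2 and 5 among all miRNA genes, highest in FL. Its ratio to parental cells was 1.37 in FL, 1.16 in ΔLa-module, 0.969 in ΔCTR, 0.876 in ΔNTR and 0.822 in ΔNTD.

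MIR99B stood at 51281 CPM on the same scale in parental cells, 66389 in FL, 68576 in ΔLa-module, 56363 in ΔNTD, 44973 in ΔNTR and 47890 in ΔCTR. On this scale it was higher in ΔNTD than in parental cells, by 1.10 times. Its ratio was 1.34 in ΔLa-module, 1.29 in FL, 0.934 in ΔCTR and 0.877 in ΔNTR. With strand left out of the counting, MIR99B had between 6 and 24 counts per library, and its hairpin is the one that meets an exon of another gene, SPACA6-AS1, on the opposite strand.

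MIR99A, which shares its seed with MIR100, was the least counted of these members. Its level was 32064 CPM on that scale in parental cells, 43761 in FL, 35629 in ΔLa-module, 32148 in ΔNTD, 23889 in ΔNTR and 25659 in ΔCTR. On that scale alone, parental cells and ΔNTD did not differ beyond counting error, with a ratio of 1.00 (0.993 to 1.01). The other ratios were 1.36 in FL, 1.11 in ΔLa-module, 0.800 in ΔCTR and 0.745 in ΔNTR, the lowest of any member.

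**Figure D1:**
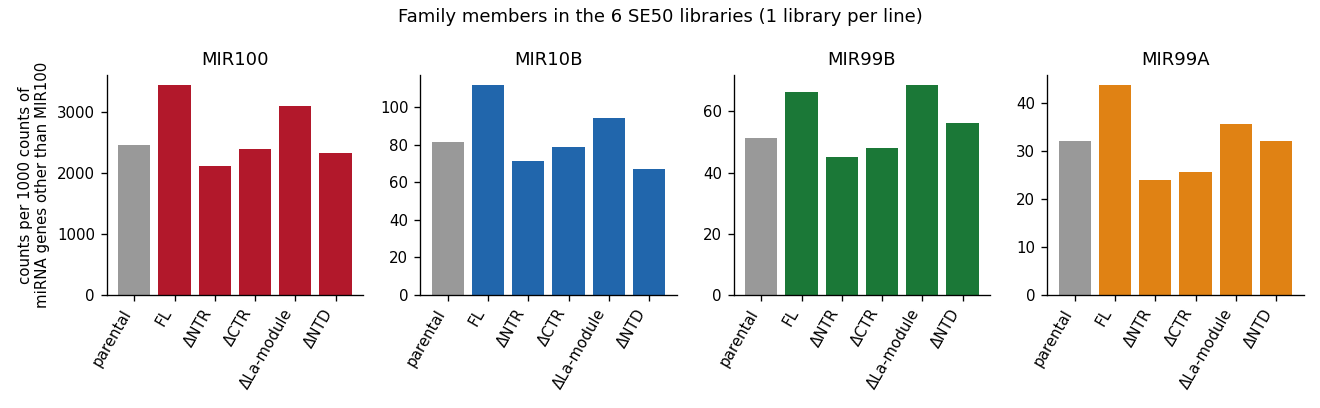
Each bar is the level of 1 member in 1 SE50 library, in counts per 1000 counts of miRNA genes other than MIR100, with parental cells in grey and the 5 LARP6 lines in colour. In every panel the bars of FL and ΔLa-module are the tallest, and ΔNTR is below parental cells.

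FL and ΔLa-module had the highest values for all 4 counted members, a pattern picked out after the values were seen. It was common among miRNA genes: of 254 with a mean count of at least 20 over the 6 libraries, 56 (22.0%) had FL and ΔLa-module above the other 4 lines and 54 (21.3%) had them below. With the edgeR TMM scaling the 4 members again had it, beside 21.7% of all 254. With MIR100 kept in the total it held for MIR100 alone, beside 10.2%. The libraries of FL and ΔLa-module also had lower shares of ambiguous reads than parental cells, ΔNTR and ΔCTR, which held 50.8 to 54.0%, but ΔNTD was lowest at 40.4%. The part of this in the pattern was not tested.

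None of the 4 counted members differed from parental cells by 1.5-fold or more in any line. Among the 254 miRNA genes, 18.5% were at least 1.5-fold higher and 18.5% lower in FL. ΔLa-module followed with 12.6% higher and 26.4% lower. The other lines had fewer, with 5.12% higher and 14.6% lower in ΔNTD, 4.33% and 14.6% in ΔNTR, and 4.72% and 11.8% in ΔCTR. On the log2(CPM + 1) scale in FL, MIR100 changed by 0.48, MIR10B by 0.46, MIR99A by 0.45 and MIR99B by 0.37, where the median miRNA gene changed by 0.01. This placed the members between percentiles 70.1 and 76.8 of the 254 genes. In ΔLa-module they lay between percentiles 66.5 and 80.7, with MIR99B on top. ΔNTR held them between percentiles 20.9 and 37.8, with MIR99A lowest at −0.42. In ΔCTR, MIR99A stood at percentile 18.9 and the others between 40.2 and 52.4. ΔNTD spread them the most, from percentile 29.1 for MIR10B to 70.1 for MIR99B.

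**Figure D2:**
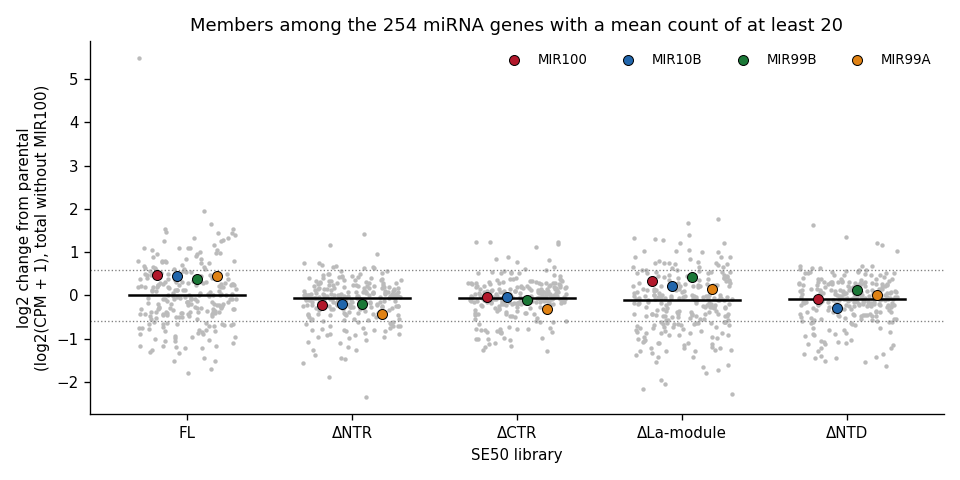
Grey points are the log2 changes of miRNA genes with a mean count of at least 20 in each LARP6 line against parental cells (1 library each), coloured points are the 4 counted members, black bars the medians of all 254 genes and dotted lines a change of 1.5-fold. All members stay between the dotted lines, above the median in FL and ΔLa-module and below it in ΔNTR.

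The size of these changes, and for 3 of the 20 their direction, depended on the scaling. MIR100 in ΔNTD, and MIR99A and MIR10B in ΔLa-module, changed sign among 5 scalings. With ambiguous reads in the total, MIR10B in ΔNTD turned as well, from 0.822 to 1.04 times parental cells, and MIR100 there from 0.943 to 1.20 times. MIR99A in ΔNTD went from 1.00 times parental cells to 1.10 times with TMM and 1.27 times with ambiguous reads in the total. For MIR10B in ΔLa-module the log2 change ran from −0.03 to 0.33, and for MIR99A from −0.10 to 0.27. The total with MIR100 moved the median change of all 254 miRNA genes to −0.34 in FL and −0.32 in ΔLa-module, so relative to that median MIR100 stood 0.46 higher in FL on this scale and 0.47 higher with MIR100 left out of the total. The split of higher and lower calls moved too. In FL it was 47 higher and 47 lower without MIR100 in the total, 23 and 87 with it, and 40 and 46 with TMM. In ΔLa-module the same splits were 32 and 67, 17 and 94, and 35 and 48. In ΔNTR they were 11 and 37, 18 and 26, and 9 and 26, and in ΔNTD 13 and 37, 13 and 31, and 19 and 28.

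**Figure D3:**
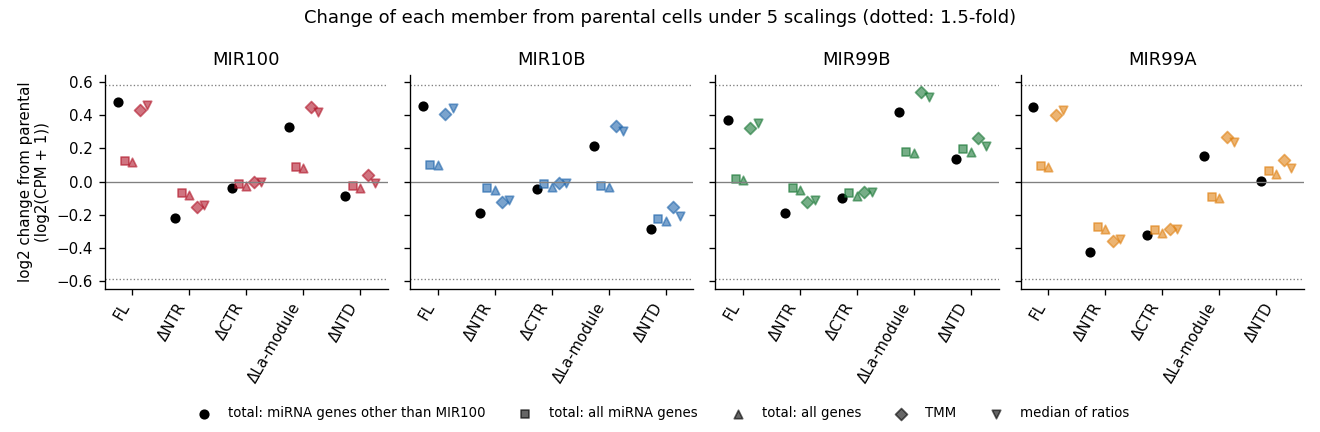
Each point is the log2 change of 1 member in 1 LARP6 line against parental cells under 1 of 5 scalings, with the total of miRNA genes other than MIR100 in black and the 1.5-fold limits dotted. The totals that hold MIR100 (squares and triangles) bring FL and ΔLa-module towards 0, and no point passes a dotted line.

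Ratios between members within a library do not depend on the scaling. MIR100 had 30.4 counts for each count of MIR10B in parental cells, 30.8 in FL, 32.9 in ΔLa-module, 34.8 in ΔNTD, 29.8 in ΔNTR and 30.5 in ΔCTR. ΔLa-module and ΔNTD stand above the other 4 lines, which run from 29.8 to 30.8. For MIR100 and MIR99B the ratio was 48.1 in parental cells, 51.8 in FL, 45.3 in ΔLa-module, 41.3 in ΔNTD, 47.2 in ΔNTR and 50.1 in ΔCTR. Against MIR99A the MIR100 ratio was 77.0 in parental cells, 78.6 in FL, 87.1 in ΔLa-module, 72.4 in ΔNTD, 88.9 in ΔNTR and 93.5 in ΔCTR.

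The ratio of MIR99B to MIR10B, of which one carries the miR-100 seed and the other the miR-10 seed, moved more. It was 0.631 (0.627 to 0.635) in parental cells, 0.595 in FL, 0.727 in ΔLa-module, 0.844 (0.838 to 0.849) in ΔNTD, 0.632 in ΔNTR and 0.608 in ΔCTR. ΔNTD thus stood 33.7% above parental cells, and ΔNTR was within counting error of them. MIR99A to MIR10B ran from 0.326 in ΔCTR to 0.481 in ΔNTD, with 0.395 in parental cells, the widest range of any pair at 1.48-fold. Between MIR99A and MIR99B the ratio was highest in FL at 0.659 and lowest in ΔLa-module at 0.520, with 0.625 in parental cells.

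**Figure D4:**
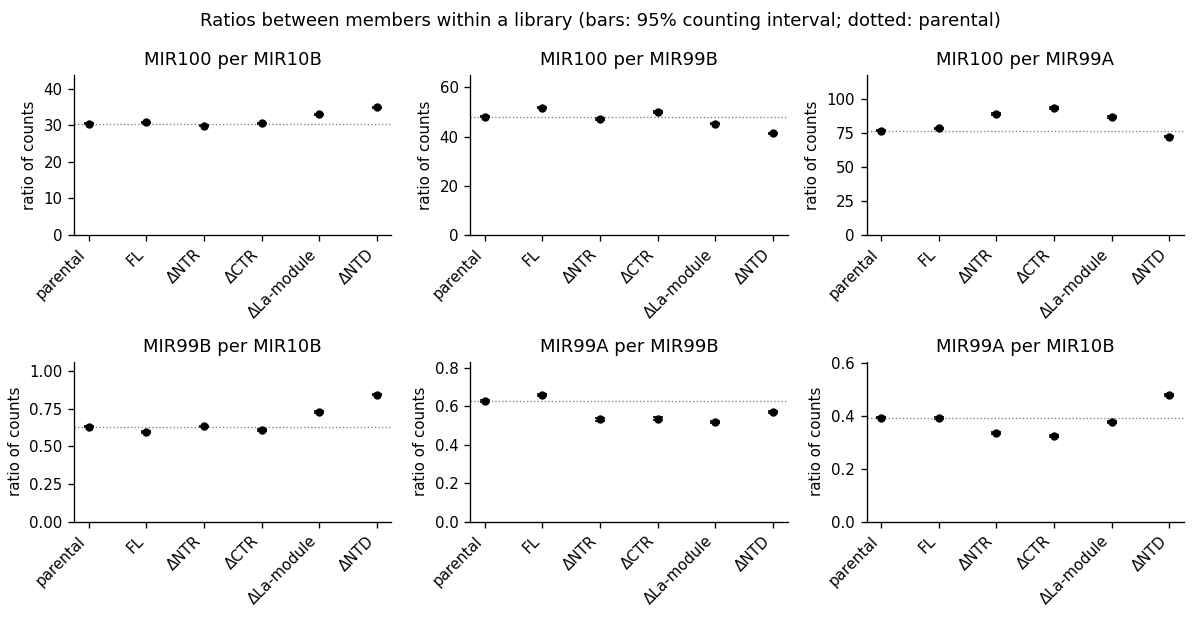
Each panel shows the ratio of the counts of 2 members in the 6 SE50 libraries, with the 95% counting interval as a bar and the parental value as a dotted line. The ratio of MIR99B to MIR10B reaches 0.844 in ΔNTD, and MIR100 to MIR10B stays between 29.8 and 34.8.

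All 4 counted members together made up 75.9% of miRNA counts in parental cells, 82.5% in FL, 80.5% in ΔLa-module, 74.6% in ΔNTD, 72.5% in ΔNTR and 75.1% in ΔCTR. Genes with the miR-100 seed held at least 70.2% of miRNA counts in every line. Of the miRNA counts outside MIR100, the other 3 members took between 14.0% in ΔNTR and 22.2% in FL. Over the 6 libraries the 10 most counted miRNA genes were MIR100, MIR222, MIRLET7G, MIR10B, MIR27B, MIR99B, MIR221, MIR30D, MIR29A and MIR25, so 3 of the 10 were members.

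Several miRNA genes next to members are thought to be cut from the same host transcripts. MIRLET7A2, a let-7 gene 5635 nt from MIR100, had ratios to parental cells of 1.18 in FL, 1.15 in ΔLa-module, 1.10 in ΔNTD, 0.992 in ΔCTR and 0.908 in ΔNTR. Like MIR100 it was highest in FL and ΔLa-module, but MIR100 outnumbered it by at least 1494 to 1. The mature let-7a and miR-125b are each known to come from several gene copies, and reads that map to more than 1 place were not counted. MIRLET7E, 104 nt from MIR99B, had ratios between 0.864 in ΔNTD and 1.02 in FL. MIR125A, 572 nt from MIR99B, was at 1.44 (1.43 to 1.46) in ΔNTD and between 0.824 and 0.957 in the other LARP6 lines. There were 3.01 MIR99B counts for each MIR125A count in parental cells, 4.88 in ΔLa-module and 2.29 in ΔNTD, so these neighbours did not keep 1 ratio. MIR125A overlaps an exon of SPACA6 in part, so some of its reads may be ambiguous. MIR125B1, on the MIR100 host and 52384 nt away, was added after its values were seen and stood at 1.31 in ΔNTD and 1.02 to 1.16 elsewhere. MIRLET7C and MIR125B2 near MIR99A, and MIR7704 near MIR10B, lie wholly in same-strand exons and were listed at 0.

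The miRNA genes whose levels ran most like a member's were found by the correlation of log2 CPM over the 6 libraries, among 140 miRNA genes with at least 100 counts in each. The points share 1 total per library, so the correlations are descriptions. For MIR100 they were MIR204 (Pearson r = 0.96), MIR589 (0.96) and MIR10B (0.95), and for MIR99A they were MIR139 (0.97), MIR204 (0.94) and MIR3909 (0.94). MIR99B ran most like MIRLET7A2 (0.96), MIR504 (0.94) and MIR3909 (0.94). The nearest to MIR10B were MIR582 (0.96), MIR769 (0.95) and MIR3681 (0.95). Among the members themselves r ran from 0.73 for MIR99B and MIR10B to 0.95 for MIR100 and MIR10B.

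The PE150 libraries, which did not enter the choice of the family, showed whether the host transcripts moved. MIR100HG had 7562 counts in parental cells, 8846 in FL, 8866 in ΔLa-module, 8840 in ΔNTD, 7952 in ΔNTR and 8101 in ΔCTR. After TMM scaling this was 1.12 times parental cells in FL, 1.11 in ΔLa-module, 1.14 in ΔNTD, 1.14 in ΔNTR and 1.06 in ΔCTR. MIR100HG was thus above parental cells in all 5 lines, 3 of which had less MIR100 on the scale without it. With TMM, MIR100 was 1.03 times parental cells in ΔNTD, 0.998 in ΔCTR and 0.901 in ΔNTR. The MIR100HG ratios all share 1 parental library. At the MIR100 hairpin itself the long RNA libraries counted 36 fragments for parental cells, 72 for ΔCTR, 71 for ΔNTD, 69 for FL, 58 for ΔLa-module and 56 for ΔNTR. These were 1.52 to 1.99 times the parental level, and the interval lay above 1 in FL, ΔNTR, ΔCTR and ΔNTD but reached 0.987 in ΔLa-module. All 5 ratios rest on the same 36 parental counts, and PE150 reads are not mature miRNA.

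MIR99AHG had 2367 counts in parental cells, 2552 in FL, 2438 in ΔLa-module, 2279 in ΔNTD, 2276 in ΔNTR and 2464 in ΔCTR. Its ratios, 0.937 to 1.04, stayed near 1 where those of MIR99A ran from 0.745 to 1.36. SPACA6 had 227 counts in parental cells, 242 in FL, 192 in ΔLa-module, 140 in ΔNTD, 192 in ΔNTR and 183 in ΔCTR. In ΔNTD it was 0.60 times parental cells (0.483 to 0.744), past the fold, whereas MIR99B stood at 1.10 there. Of 12651 genes with a mean PE150 count of at least 50, 1.08% were at least 1.5-fold lower in ΔNTD and 1.37% higher. The list of hosts holds 10 genes, the 8 that overlap a member and the nearby HOXB4 and HOXD4. Of the 10, 8 were tested, and SPACA6 alone passed the fold in any line. HOXD3, around MIR10B, had 82 to 109 counts and ratios of 0.907 to 1.23, all with intervals that include 1. HOXB3, around MIR10A, had 363 to 414 counts and ratios of 0.940 to 0.991.

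Genes listed as known targets were then examined for each seed group, as a readout of the long RNA libraries. Of 18 listed miR-99/100 targets, 14 have the 7 letters TACGGGT, which pair with the shared seed, in the 3′UTR of their canonical transcript, read on the transcript strand. Of all 19559 such 3′UTRs, 206 (1.05%) have them. For the miR-10 seed the letters are ACAGGGT, found in 13 of 17 listed targets and 2449 (12.5%) of all 3′UTRs. The lists hold genes already known as targets of these miRNAs, so the shares with a match are no test of the lists. The 3′UTRs with a match were longer, with a median of 3441 nt for the first and 3088 nt for the second beside 1064 nt over all. The sites are shown for some of the targets named below, 5′ to 3′ on the transcript strand with the seed match in capitals:
MTOR (miR-99/100, chr1:11107176-11107200, minus strand): actttagaaaTACGGGTtttgactt
SMARCA5 (miR-99/100, chr4:143553225-143553249, plus strand): ttctttaattTACGGGTcttcataa
TFAP2C (miR-10, chr20:56639019-56639044, plus strand): tcatatatatACAGGGTAttaagaat
BDNF (miR-10, chr11:27657741-27657766, minus strand): tatatacataACAGGGTAaattattc
In TFAP2C and BDNF the match goes on with an A opposite the first base of the miRNA, which is printed in capitals too.

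No listed miR-99/100 target passed the fold in any line. Of the 18, 17 were tested, and FGFR3 did not reach the mean count of 50. Of all genes, 3.64% passed it upwards and 1.00% downwards in ΔNTR, 1.94% and 0.704% in ΔLa-module, 0.727% and 0.324% in ΔCTR, and 0.522% and 0.356% in FL. The median log2 change of the list was 0.02 in FL, −0.01 in ΔLa-module, −0.05 in ΔNTD, −0.03 in ΔNTR and −0.02 in ΔCTR, beside medians of all genes within 0.01 of 0. MTOR, the growth kinase, had 4868 to 5446 counts and ratios of 0.940 to 1.15. PLK1, a mitotic kinase, had ratios of 0.890 to 0.966, and SMARCA5, a chromatin remodeller, of 0.937 to 1.13.

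Of 17 listed miR-10 targets, 2 passed the fold, both downwards. TFAP2C, a transcription factor of the AP-2 family, had 103 counts in parental cells, 70 in FL, 44 in ΔLa-module, 53 in ΔNTD, 34 in ΔNTR and 47 in ΔCTR. Parental cells were highest and FL next, and its ratio was 0.357 (0.235 to 0.530) in ΔNTR, 0.404 in ΔLa-module, 0.454 in ΔCTR and 0.501 in ΔNTD, all past the fold, and 0.651 in FL, short of it on the log2(CPM + 1) scale. Its mean of 58.5 counts was just over the minimum. BDNF, a neurotrophin, had 1212 counts in parental cells, 1038 in FL, 920 in ΔLa-module, 818 in ΔNTD, 750 in ΔNTR and 1037 in ΔCTR. It passed the fold in ΔNTD alone, at 0.657, and its ratio in ΔNTR was 0.669. MIR10B was below parental cells in 3 of the 4 lines in which TFAP2C passed the fold and above them in ΔLa-module on the scale without MIR100. With ambiguous reads in the total it was above them in ΔNTD too. The list medians were −0.04 in FL, 0.02 in ΔLa-module, 0.00 in ΔNTD, 0.08 in ΔNTR and −0.01 in ΔCTR. NF1, which restrains RAS, did not pass the fold, with ratios of 0.975 to 1.04.

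The seed matches were then read over all tested genes. Among 148 tested genes with TACGGGT the median log2 change was 0.01 in FL, −0.02 in ΔLa-module, 0.02 in ΔNTD, −0.01 in ΔNTR and −0.01 in ΔCTR. Among 1711 tested genes with ACAGGGT it was within 0.01 of 0 in each line. Of the 148 genes, 0.676% were past the fold upwards and 0% downwards in FL, beside 0.522% and 0.356% of all genes.

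Genes of miRNA processing and silencing did not pass the fold in any line. Of 19 listed, 18 were tested, and LIN28A did not reach the minimum count. AGO4, an Argonaute protein named after its values were seen, came closest, with 463 counts in parental cells, 711 in FL, 587 in ΔLa-module, 621 in ΔNTD, 654 in ΔNTR and 582 in ΔCTR. Its ratio to parental cells was 1.53 (1.35 to 1.72) in ΔNTR and 1.47 in FL, and between 1.20 in ΔLa-module and 1.31 in ΔNTD for the rest, each with an interval above 1. In ΔNTR it fell short of the fold only on the log2(CPM + 1) scale, at 0.58. TNRC6A and TNRC6B, partners of Argonaute in silencing, had ratios of 0.924 to 1.04 and of 0.851 to 0.955. DICER1, which cuts the hairpin to the mature form, had 3435 to 4338 counts and ratios of 0.957 to 1.07. The list median lay between −0.07 in ΔNTR and 0.03 in FL.

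In the iCLIP data, which map where the tagged LARP6 touches RNA, the authors' pooled peak lists held no peak on a member hairpin. MIR100HG carried 5 peaks for ΔNTR with a summed score of 16, 4 for ΔCTR with 12, 1 for ΔNTD with 3, and none for FL or ΔLa-module. MIR99AHG carried 3 peaks for FL with a summed score of 9 and 1 each for ΔNTR, ΔCTR and ΔLa-module. SPACA6 and HOXD3 had no peak in any list. Of 12645 genes tested in the PE150 libraries and placed in the annotation, 38.7% had a peak in the ΔCTR list, 37.1% in that of ΔNTR and 36.4% in that of FL, beside 3.58% with ΔLa-module and 1.95% with ΔNTD. Of the 17 tested miR-99/100 targets, 8 (47.1%) had a peak for FL, 11 each (64.7%) for ΔCTR and ΔNTR and 1 each for ΔNTD and ΔLa-module, with 9 peaks on MTOR for FL. Among the 17 miR-10 targets 5 (29.4%) had one for FL, 7 (41.2%) for ΔNTR, 4 (23.5%) for ΔCTR and none for ΔLa-module or ΔNTD, and neither TFAP2C nor BDNF had any. A peak was counted anywhere in a gene, and the listed genes were longer, with a median of 102177 nt for the miR-99/100 targets and 49067 nt for the miR-10 targets beside 33289 nt over all. The shares are not scaled to transcript abundance either, and the part of length and of abundance in them was not tested. The score is a whole-number sum over 3 replicates without scaling to depth, with 3 the lowest value seen on these genes, so these counts are given side by side without a test.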

How the data were processed

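The series has 30 samples, of which 6 SE50 and 6 PE150 libraries carry the values given here. As deposited by the authors, each library is a table of raw counts per gene from STAR 2.7.10b after Trim Galore 0.6.10, on GRCh38.p13, with 1 column without strand and 1 for each strand. The forward strand was read for SE50 and the reverse for PE150. Of 62750 gene identifiers, 62625 matched GENCODE 44 by identifier without version. Exon overlaps were read from GENCODE 44 too, whereas the authors' methods name an earlier release for the counts. Per the authors' methods, the deposited iCLIP score of a peak is the sum over 3 replicates whose peaks were merged, and peaks called in parental cells were then taken out.

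SE50 counts were divided by the total of miRNA genes other than MIR100, and PE150 counts by edgeR 4.0.16 TMM library sizes. A gene was past the fold at 1.5-fold on log2(CPM + 1), with a pseudocount of 1 CPM, given a mean count of at least 20 (SE50) or 50 (PE150). No test was run, since each line has 1 library per protocol. Intervals are Clopper-Pearson for shares and exact binomial for ratios, at 95%. Alternatives were the total with MIR100, all genes, TMM, DESeq2 1.42.0 size factors, unstranded counts, other filters and a fold of 2. The code for the fold and intervals was run on simulated counts with known changes. Those counts held counting error only, so the run cannot speak to the spread between cultures.

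The genes named are the members, genes over them and miRNA genes within 50 kb, the listed genes past the fold and the 3 most counted per list, the 10 most counted miRNA genes, and the 3 most alike per member. Some genes that this rule names are not reported here. The members and lists were chosen with earlier results of these data known.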

Additional observations from a re-analysis of the deposited data

How the results depend on the processing

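Of 36 results, recomputed 187 times in all, 37 values stayed within counting error or within 1.5 times the count first given, and 150 moved. Shares and numbers of genes have no direction, and no member was past the fold as first given. A called change could therefore not reverse. For members other than MIR100, 83 of 90 moved. At these counts the interval is so narrow that most rescalings leave it. The unstranded values of MIR99B differ, since they rest on 6 to 24 counts per library. In the order FL, ΔNTR, ΔCTR, ΔLa-module and ΔNTD they were 0.676, 0.696, 0.616, 0.396 and 0.811 times parental cells. As first given, they were 1.29, 0.877, 0.934, 1.34 and 1.10, so FL, ΔLa-module and ΔNTD changed direction. Depth does not limit the forward-strand SE50 values of the counted members. The lack of a second library per line does.

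The MIR100 share of miRNA counts in the order parental, FL, ΔNTR, ΔCTR, ΔLa-module and ΔNTD was 73.4, 79.6, 70.3, 72.7, 77.9 and 72.4% by unstranded counts, and 69.5, 75.5, 65.8, 68.3, 73.6 and 67.6% of all gene counts. The ratio of MIR100 to parental cells in the order FL, ΔNTR, ΔCTR, ΔLa-module and ΔNTD was 1.42, 0.858, 0.968, 1.28 and 0.951 by unstranded counts. It was 1.09, 0.955, 0.992, 1.06 and 0.983 with MIR100 in the total, and 1.09, 0.947, 0.983, 1.06 and 0.973 over all genes. With TMM it was 1.35, 0.901, 0.998, 1.37 and 1.03, and with the median of ratios 1.38, 0.908, 0.999, 1.34 and 0.994. With ambiguous reads added to gene counts, an alternative chosen after seeing the data, it was 1.33, 0.873, 0.963, 1.33 and 1.20. ΔNTD thus went from below to above parental cells with TMM and with ambiguous reads. The cause was not tested.

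The number of miRNA genes past the fold, in the same order of lines, was 282, 215, 248, 329 and 228 without a count filter, where 778 genes were tested. It was 57, 16, 14, 56 and 25 at a mean count of at least 100, where 165 were tested, and 40, 14, 15, 44 and 25 at a fold of 2, against 94, 48, 42, 99 and 50 as first given. The PE150 counts were 41, 356, 60, 186 and 157 at a mean count of at least 200 (10027 genes tested) and 8, 101, 10, 57 and 46 at a fold of 2, against 111, 587, 133, 335 and 310. TFAP2C, with a mean of 58.5 counts, is not tested at the higher minimum, and at a fold of 2 it passed in ΔNTR alone. BDNF and SPACA6 did not pass a fold of 2 in ΔNTD. All calls of these 3 genes at 1.5-fold held with the total of gene counts as the scale.

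No paired analysis was possible because each line has 1 library per protocol, so no comparison rests on replicates or on a test.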
